A study of Homo sapiens with 11 samples.

Results

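Solute carrier genes encode the membrane proteins that move small molecules across the plasma membrane and across the membranes of mitochondria, lysosomes and the Golgi apparatus. The genes described here are the solute carriers measured in gelsolin-overexpressing HCT116 cells, other than the glutamate, glucose, cationic amino acid and monocarboxylate subfamilies SLC1A, SLC2A, SLC3A, SLC7A and SLC16A. They were chosen by name and by signal level. Every probe with a symbol of SLC and a digit was taken, and a gene was kept when its normalized signal, averaged over the arrays of a line, exceeded the common array median of 88.35 in at least 2 of 6 lines. The rule named 311 genes, of which 168 passed and 143 were too dim, and these 168 are among the 10267 genes tested. A gene with several probes is given by its brightest probe.

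HCT116 is a human colorectal carcinoma line. The lines C1, C2, C3 and C8 are clones of HCT116 stably transfected with pIRES2-EGFP carrying human cytoplasmic gelsolin cDNA, and the control lines V4 and V5 received the empty plasmid. Both kinds of line therefore carry the EGFP plasmid and were selected in G418. RNA from independent harvests was hybridised to Illumina HumanRef-8 beadchips, giving 2 arrays for each line and 1 array for V5, or 8 gelsolin and 3 vector arrays. Each line is 1 clone, so what belongs to gelsolin and what belongs to the choice of clones cannot be told apart with 2 vector lines. The labels number the arrays of a line as replicates and name no harvest. Replicate 1 is called the first harvest here and replicate 2 the second, an order that was not checked. For the 5 lines with 2 arrays, beadchip 1 carried the first harvest and beadchip 2 the second, so harvest and beadchip cannot be told apart. The V5 array lay on beadchip 2 although its label numbers it as replicate 1, and the figures mark it as a first harvest.

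Carriers differ in what drives them. Some exchange one solute for another, some use the sodium gradient kept up by the sodium pump, and others use a proton gradient or simply let a solute run down its own gradient. Colonic epithelium depends on them for the uptake of amino acids, for salt and bicarbonate movement and for metal balance, and every proliferating cell depends on the mitochondrial family to pass citrate, phosphate and nucleotides across the inner membrane. Cells tune several carriers to supply. The amino acid carriers SLC38A1 and SLC38A2 supply glutamine and other neutral amino acids, and SLC38A2 rises when amino acids are scarce through the transcription factor ATF4, which binds C/EBP-ATF response elements. The zinc exporter SLC30A1 and the metallothioneins, small proteins that bind zinc and copper, are induced through the zinc-sensing factor MTF1, which binds metal response elements.

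Promoter sequence is shown for 5 members taken from the amino acid and zinc results below, chosen after their values were seen. SLC38A1 and SLC38A2 neighbour each other on chromosome 12, on the same strand with starts 106257 bases apart, and had the largest falls among amino acid carriers. SLC30A3 and SLC39A3 are zinc carriers that moved in opposite directions, SLC39A3 by its brighter probe alone, and SLC30A1 is the zinc exporter that changed between harvests. The zinc carrier SLC39A14 had a larger fall than SLC39A3, and its promoter is not shown. The sequences are the 250 bases before the start, from RefSeq on GRCh38.p14, read 5′ to 3′ on the strand of the gene, which is the minus strand for all 5. Capitals mark matches to the metal response element, searched as TGCACNC or TGCGCNC on both strands.
SLC38A1, chr12:46266517-46266766: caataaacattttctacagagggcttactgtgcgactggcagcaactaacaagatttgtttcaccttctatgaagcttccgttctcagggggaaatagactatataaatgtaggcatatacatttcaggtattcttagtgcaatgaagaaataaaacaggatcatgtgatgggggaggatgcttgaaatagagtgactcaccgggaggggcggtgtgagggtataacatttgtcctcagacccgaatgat
SLC38A2, chr12:46372774-46373023: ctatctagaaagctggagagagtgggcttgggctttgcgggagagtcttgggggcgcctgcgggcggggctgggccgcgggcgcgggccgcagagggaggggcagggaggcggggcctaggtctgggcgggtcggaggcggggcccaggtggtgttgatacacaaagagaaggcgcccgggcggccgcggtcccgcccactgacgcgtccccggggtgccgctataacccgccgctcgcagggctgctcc
SLC30A3, chr2:27275347-27275596: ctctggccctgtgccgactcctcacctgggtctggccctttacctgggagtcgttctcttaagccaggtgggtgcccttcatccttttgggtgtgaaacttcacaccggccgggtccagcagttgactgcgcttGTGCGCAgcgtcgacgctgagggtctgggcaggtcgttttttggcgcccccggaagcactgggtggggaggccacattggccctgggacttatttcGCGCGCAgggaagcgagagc
SLC39A3, chr19:2740077-2740326: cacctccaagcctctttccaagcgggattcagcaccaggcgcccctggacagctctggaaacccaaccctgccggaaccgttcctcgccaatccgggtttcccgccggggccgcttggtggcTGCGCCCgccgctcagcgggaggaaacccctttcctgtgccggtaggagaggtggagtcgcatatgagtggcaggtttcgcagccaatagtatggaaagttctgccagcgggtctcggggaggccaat
SLC30A1, chr1:211579162-211579411: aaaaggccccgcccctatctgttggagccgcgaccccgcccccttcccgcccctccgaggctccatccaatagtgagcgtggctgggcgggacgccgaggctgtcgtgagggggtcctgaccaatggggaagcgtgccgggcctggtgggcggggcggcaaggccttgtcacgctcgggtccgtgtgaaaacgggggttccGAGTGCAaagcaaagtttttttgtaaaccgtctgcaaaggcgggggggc

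The SLC30A1 match begins 49 bases before the start, the SLC39A3 match 128 bases before it, and the SLC30A3 matches 116 and 20 bases before it. A RefSeq promoter was found for 142 of the 168 members. The metal response element matched in 44 of them, or 31.0%, against 24.8% of 35116 promoters of the same length. Among members that passed the test of gelsolin against vector lines below, it matched in 8 of 21 that were higher and 5 of 17 that were lower. The C/EBP-ATF response element, searched as TGATGNAAN on both strands, matched in 3 of 142 members and in 3.13% of all promoters. It has no match in the windows of SLC38A1 and SLC38A2 printed above. Sequence after the start and further upstream was not searched, so this says nothing of elements elsewhere in these genes. These matches describe letters in a window and locate no binding.

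The arrays had median signals between 75.7 and 105 before scaling, and no signal fell near 0, so background remains in the values and fold changes of dim probes are smaller than those of their transcripts. Probe levels are not comparable between genes and are compared only between samples. GSN, the gelsolin gene, was higher in the gelsolin lines by 0.67 on the log2 scale (standard error, SE, 0.13, adjusted p = 0.00365 by limma), with arrays between 187 and 271 against 140.2 to 141. No source used here places this probe on the plasmid insert or outside it. Epithelial markers were present, with EPCAM between 2949 and 5456 over the gelsolin arrays, but CDH1 stayed between 77.8 and 99.9 and LGALS4 did not pass the filter. The 7 epithelial markers summed to 21925 to 29269 in the gelsolin arrays and 19109 to 27165 in the vector arrays, and 2 of the 6 that passed were higher, KRT19 by 1.00 and CLDN4 by 0.42. Of the 3 leukocyte and 3 endothelial markers none passed the filter, and of 4 fibroblast markers 1 did, COL1A1, which was lower by a log2 fold change of -0.56. Their part in the carrier results was not tested. In bulk RNA, fewer cells of a kind and less RNA per cell cannot be told apart.

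Gelsolin lines were compared with vector lines to ask which carriers differ when gelsolin is overexpressed. Of the 168 members, 25 were higher (14.9%) and 18 lower (10.7%) in gelsolin lines by limma (adjusted p below 0.05), against 12.8% and 9.41% of all genes tested. The shares called were thus close to the background, and the median log2 fold change of the members was 0.03 beside 0.02 over all genes. The arrays of the arms did not overlap for 22 members that were higher and 18 that were lower in gelsolin arrays, against 11.0% and 9.23% of all genes tested. Called changes of at least 2-fold were those of SLC33A2, SLC41A3 and SLC44A2 upward and SLC5A1, SLC38A1 and SLC38A2 downward, 3 each way of 168, against 1.08% and 1.15% of all genes. The 43 called members had the same direction within each beadchip, as did 2262 of the 2280 genes called in all, and the calls were made on the mean over both beadchips. The plot of fold changes by substrate shows calls in both directions within most classes. Counts of calls by class or partner list below stand beside these shares of 12.8% higher and 9.41% lower over all genes tested. They rest on few genes and were not tested as sets, so they are not read as results about a class or list.

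**Figure D1:**
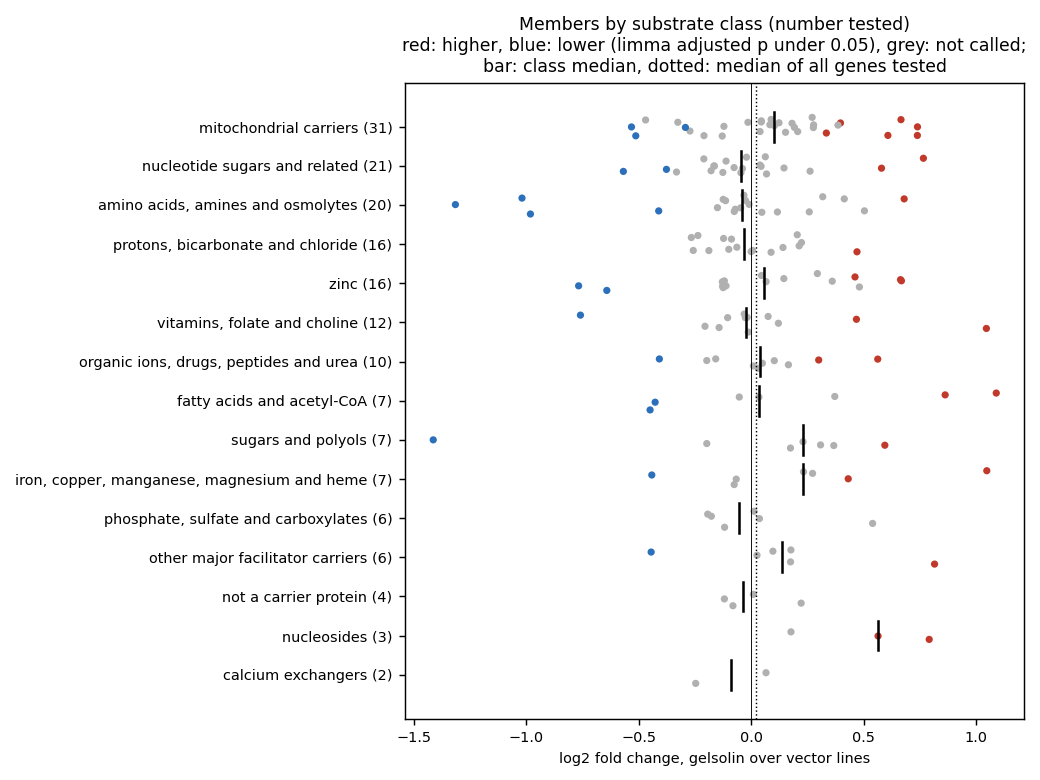
Log2 fold change of gelsolin over vector lines (horizontal axis) for each of the 168 members, grouped by substrate class with the number tested in brackets. Red points were higher and blue points lower at a limma adjusted p under 0.05, grey points were not called, black bars are class medians and the dotted line is the median of all genes tested, 0.02. Of 20 amino acid carriers 5% were called higher and 20% lower, and of 31 mitochondrial carriers 19.4% and 9.68%. The shares over all genes tested are 12.8% and 9.41%, and no class was tested as a set.

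Of 46 amino acid carrier genes on the array 20 were tested, and 4 were lower (20%) and 1 higher (5%). Over all genes tested 9.41% were lower and 12.8% higher, and with so few genes the counts are not read as a result about the class. SLC38A1, which brings glutamine and other neutral amino acids into the cell with sodium, gave, in the first then the second harvest, 689 then 1068 (C1), 852 then 857 (C2), 808 then 977 (C3) and 702 then 796 (C8). The vector arrays gave 1998 then 2202 (V4) and 2061 (V5). The highest gelsolin array thus stood well under the lowest vector array. The line means were 837 ± 61.8 (SD, n = 4 lines) and 2079 ± 26.1 (SD, n = 2 lines), a log2 difference of -1.32 (SE 0.12, adjusted p = 3.51e-05).

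SLC38A2, its neighbour and a carrier of the same substrates, read 4475 then 4259 (C1), 5815 then 3791 (C2), 4758 then 3716 (C3) and 2864 then 3195 (C8). The 3 vector arrays lay together at 8169 then 8115 (V4) and 8155 (V5). C8 was the lowest of the gelsolin lines in both harvests, and no gelsolin array reached the vector level. The log2 fold change was -1.02 (SE 0.16, adjusted p = 0.00134), and the gelsolin lines differed among themselves by up to 0.63 on that scale. SLC6A9, the glycine carrier GLYT1, followed with 175 ± 20.2 against 347 ± 56.0 (SD, n = 4 and 2 lines), a log2 difference of -0.98 (SE 0.14, adjusted p = 0.000581). Its arrays gave 143 then 289.5 (C1), 176 then 173 (C2), 163 then 151 (C3) and 149.8 then 183 (C8), against 353 then 422 (V4) and 307 (V5). The second harvest of C1 was the only gelsolin array above 200 and approached V5. A dimmer SLC6A9 probe gave a log2 difference of -0.22 (adjusted p = 0.0765) and was not called.

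SLC43A1, a carrier of large neutral amino acids, was dim and close in all gelsolin arrays, from 86.4 to 95.6, with vector arrays from 116 to 132 (log2 fold change -0.41, adjusted p = 0.00443). It is given as an example chosen after its values were seen. Without V4 its adjusted p was 0.0652. SLC66A3, a member of the family of lysosomal amino acid exporters, was the 1 carrier of this class that rose, from 592 ± 54.3 in vector lines to 946 ± 41.5 in gelsolin lines (log2 fold change 0.68, adjusted p = 0.00209, but 0.0635 without V5). The other 15 tested members of the class, among them the creatine carrier SLC6A8 (log2 fold change -0.15), the lysosomal arginine sensor SLC38A9 (-0.07) and the proton-coupled SLC36A1 (0.12), did not pass the test. The class median was -0.04.

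**Figure D2:**
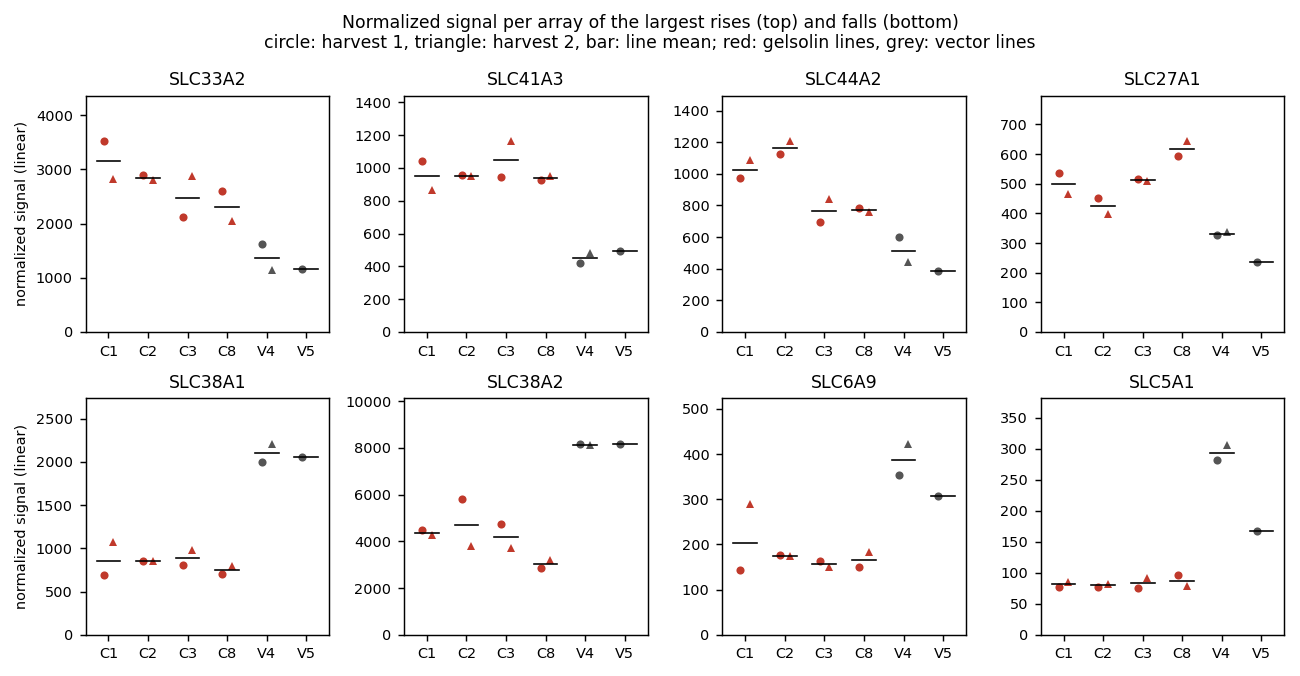
Normalized signal on a linear scale (vertical axis) in each array of the 6 lines (horizontal axis) for 4 members with large rises (top) and 4 with large falls (bottom). Circles are first and triangles second harvests, bars are line means, red marks gelsolin and grey vector lines. In all 8 panels no gelsolin array overlaps a vector array, and V4 and V5 stand apart for SLC5A1.

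Sugar and polyol carriers were 7 tested of 15. SLC5A1, the sodium-driven glucose carrier of intestinal absorption known as SGLT1, was bright in the vector lines alone. All gelsolin arrays lay between 76.1 and 96.6, around the array median. V4 gave 282 and 306 and V5 gave 167, so the vector lines differed from each other by 0.82 on the log2 scale, the largest such gap of any member. The log2 fold change was -1.41 (SE 0.19, adjusted p = 0.00161). SLC5A1 passed the signal filter through its vector lines, where it was high, so a difference was built into its being tested, and the size of the fold rests on a gelsolin level near the array median. SLC37A4, the glucose 6-phosphate carrier of the endoplasmic reticulum, rose from 1805 ± 24.1 to 2728 ± 182, a log2 fold change of 0.59 (adjusted p = 0.00354). Its call was lost without V4 and without V5, with an adjusted p of up to 0.0548. The other 5, the myo-inositol carrier SLC5A3 and the sugar exporter SLC50A1 among them, lay between -0.20 and 0.37 and were not called.

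Zinc carriers fall into exporters, the SLC30 family that lowers cytosolic zinc, and importers, the SLC39 family that raises it. Of 24 genes 16 were tested, and 3 were higher and 2 lower. Among exporters SLC30A3, which fills vesicles with zinc, read 850.1 then 722 (C1), 809 then 735 (C2), 891 then 809 (C3) and 777 then 783 (C8). The vector arrays read 479 then 509 (V4) and 508 (V5), below all gelsolin arrays. Its log2 fold change was 0.67 (SE 0.11, adjusted p = 0.00186). SLC30A5, which loads zinc into the early secretory pathway, was higher by its brighter probe and is taken up with the second probes below.

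Importers moved both ways. SLC39A14, which carries zinc, iron and manganese, gave 457 then 768 (C1), 481 then 516 (C2), 439.8 then 554 (C3) and 388 then 481 (C8), against 848 then 853 (V4) and 856 (V5). The second harvest of C1 came nearest to the vector lines. The means were 504 ± 66.1 and 853 ± 3.74 (SD, n = 4 and 2 lines), a log2 difference of -0.77 (SE 0.14, adjusted p = 0.00230). SLC39A3 fell from 436 ± 19.8 to 281 ± 34.2 (log2 fold change -0.64, adjusted p = 0.00483, but 0.0676 without V4), and its dimmer probe gave -0.08 (adjusted p = 0.701). SLC39A8, a close relative of SLC39A14 with the same substrates, went the other way, from 197 ± 13.8 in vector lines to 312 ± 22.3 in gelsolin lines (log2 fold change 0.66, adjusted p = 0.00212). Its arrays overlapped, since the first harvest of C8 gave 225 beside 235 in the first harvest of V4, and without V5 its adjusted p was 0.0565. Its log2 fold change was 0.30 within beadchip 1 and 0.86 within beadchip 2. The Golgi importer SLC39A7 (-0.11), the Golgi exporter SLC30A7 (-0.13) and the intestinal importer SLC39A4 (-0.12) were among the 11 that did not pass.

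Iron, copper, manganese and magnesium carriers numbered 7 tested of 11, with 2 higher and 1 lower. SLC41A3, a magnesium carrier, had the smallest adjusted p among the rises. It read 1044 then 865 (C1), 955 then 953 (C2), 946 then 1164 (C3) and 925 then 950.0 (C8), against 423 then 480.0 (V4) and 491 (V5). The arrays of the 2 arms were far apart and the gelsolin lines differed by 0.16 at most, with a log2 difference of 1.05 (SE 0.12, adjusted p = 0.000148). Its relatives SLC41A1 (0.27, adjusted p = 0.101) and SLC41A2 (-0.07) were not called. The 2 copper carriers diverged. SLC31A1, the high-affinity copper importer of the plasma membrane, fell from 583 ± 60.1 to 428 ± 24.9 (log2 fold change -0.44, adjusted p = 0.0221), while SLC31A2, its endosomal relative, rose from 169 ± 6.87 to 229 ± 25.9 (0.43, adjusted p = 0.0291). Neither call held without V4 or without V5, with adjusted p of up to 0.219 and 0.190, and that of SLC31A2 was also lost without C2 or C3, at up to 0.0560. The iron importer SLC11A2 gave 0.23 (adjusted p = 0.181).

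Carriers of fatty acids and acetyl-CoA were 7 tested of 8, with 2 higher and 2 lower. SLC33A2, also named MFSD3 and a relative of the acetyl-CoA carrier, had the largest rise of any member. It read 3515 then 2816 (C1), 2891 then 2806 (C2), 2125 then 2884 (C3) and 2604 then 2042 (C8), against 1621 then 1135 (V4) and 1167 (V5). No arrays overlapped, though the first V4 array was nearest to the gelsolin arrays, and the log2 fold change was 1.09 (SE 0.14, adjusted p = 0.000399), with 0.76 within beadchip 1 and 1.18 within beadchip 2. SLC33A1, which carries acetyl-CoA into the endoplasmic reticulum, fell from 289 ± 15.9 to 216 ± 24.6 (log2 fold change -0.43, adjusted p = 0.0317). Of 5 fatty acid transport proteins tested, 1 rose and 1 fell, while SLC27A3 (0.03), SLC27A5 (0.37, adjusted p = 0.0900) and SLC27A6 (-0.05) were not called. SLC27A1, which couples uptake of long-chain fatty acids to their activation, rose from 284 ± 67.3 to 513 ± 79.5 (0.86, adjusted p = 0.00476), and SLC27A2, which activates very long-chain fatty acids, fell from 509.5 ± 75.6 to 373 ± 43.9 (-0.45, adjusted p = 0.0395). The call of SLC27A1 was lost without V5 (adjusted p = 0.107). Those of SLC33A1 and SLC27A2 were lost without V4 or V5, at up to 0.210 and 0.337, and also without a gelsolin line, C1 for SLC33A1 (0.0557) and C3 or C8 for SLC27A2 (up to 0.0789).

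Vitamin, folate and choline carriers were 12 tested of 18, with 2 higher and 1 lower. Both rises were choline carrier genes. SLC44A2 read 971 then 1087 (C1), 1123 then 1205 (C2), 694 then 838 (C3) and 785 then 759.8 (C8), against 601 then 440.2 (V4) and 383 (V5). C1 and C2 were higher than C3 and C8 in both harvests, and all stood above the vector arrays, with a log2 difference of 1.04 (SE 0.19, adjusted p = 0.00404). Without V5 the adjusted p was 0.0769, and the log2 fold change was 0.55 within beadchip 1 against 1.22 within beadchip 2. SLC44A1, the main choline carrier of the plasma membrane and mitochondria, rose from 1969 ± 177 to 2724 ± 243 (0.47, adjusted p = 0.0183, with up to 0.228 without V4 or V5). The third gene of this family, SLC44A3, gave 0.12 and was not called. SLC23A3, a relative of the vitamin C carriers, fell from 259.8 ± 2.45 to 154 ± 17.6 (-0.76, adjusted p = 0.00130). Its difference was -0.30 within beadchip 1 and -1.10 within beadchip 2, and its second harvest was lower than its first in all 4 gelsolin lines and higher in V4. The folate carrier SLC19A1 (-0.02), the riboflavin carrier SLC52A2 (-0.14) and the biotin and pantothenate carrier SLC5A6 (-0.01) were near 0 and were not called.

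**Figure D3:**
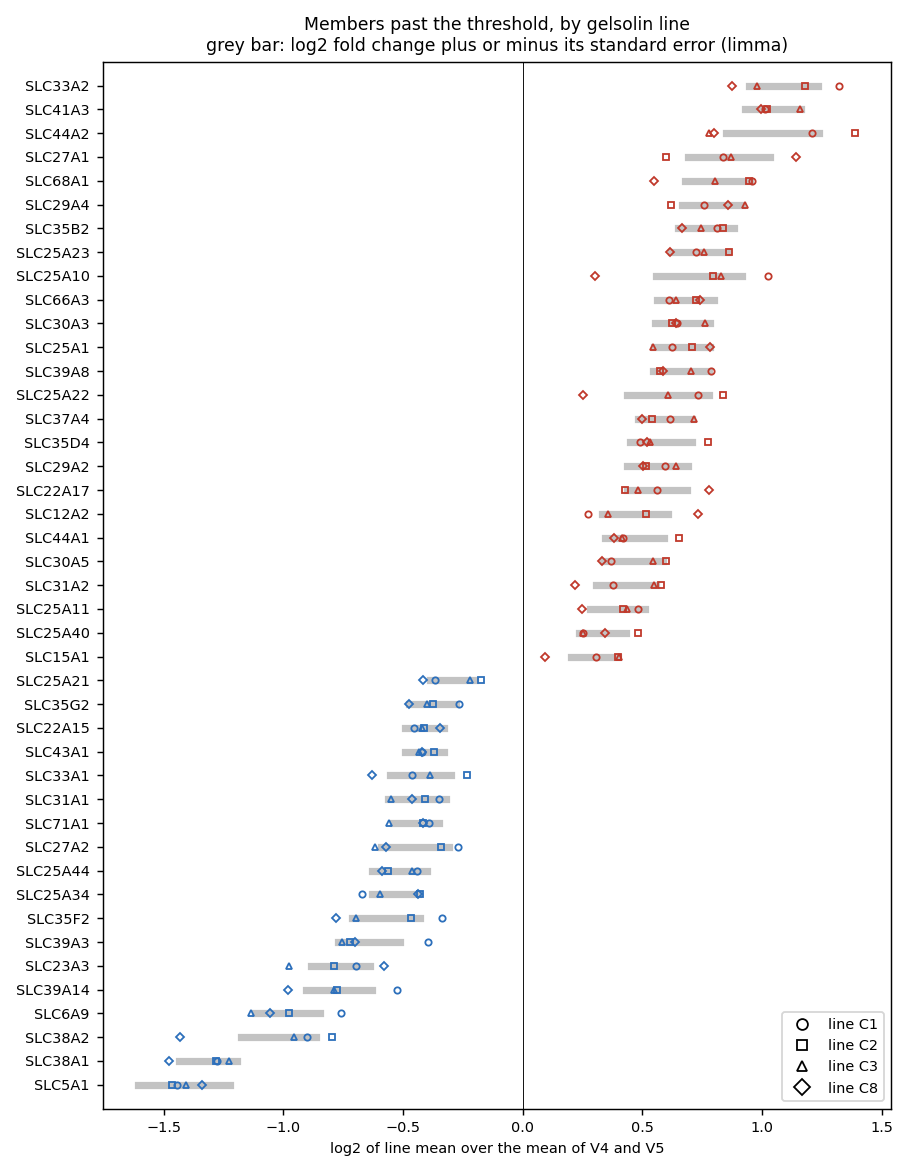
Log2 ratio of each gelsolin line mean to the mean of V4 and V5 (horizontal axis) for the 43 called members, with 1 marker shape per line and grey bars for the limma log2 fold change plus or minus its standard error. Each of the 4 lines lies on the side of its call for every member, and SLC25A10, SLC44A2 and SLC38A2 show the wide spread between lines.

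Nucleoside carriers were 3 tested of 6, and 2 were higher. SLC29A4, which in the intestine and brain carries monoamines and in acid also adenosine, rose from 653 ± 22.1 to 1132 ± 103 (log2 fold change 0.79, standard error 0.13, adjusted p = 0.00123), with all gelsolin arrays between 947 and 1312 and all vector arrays between 637 and 693. SLC29A2, an equilibrative nucleoside carrier, rose from 411 ± 60.6 to 604 ± 27.4 (0.56, adjusted p = 0.00837, but 0.164 without V5). SLC29A3 of lysosomes gave 0.18 (adjusted p = 0.233).

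Many carriers of the SLC35 family bring nucleotide sugars and related donors into the endoplasmic reticulum and Golgi apparatus for glycosylation. Genes were placed in this class by symbol, so a call in it need not concern such a donor. Of 27 genes 21 were tested, 2 higher and 2 lower, with a class median of -0.05. SLC35B2, which carries the sulfate donor PAPS into the Golgi, read 701 then 829.6 (C1), 629 then 959.7 (C2), 643 then 826 (C3) and 739 then 643 (C8). The vector arrays read 404 then 502 (V4) and 420.0 (V5), all below the lowest gelsolin array. The log2 fold change was 0.76 (SE 0.12, adjusted p = 0.00100). SLC35D4, also named TMEM241, was dimmer and rose from 114 ± 22.9 to 169 ± 15.9 (0.58, adjusted p = 0.00888, but 0.186 without V5). SLC35F2 (-0.57, adjusted p = 0.0144) and SLC35G2 (-0.38, adjusted p = 0.0171), named after their values were seen, had overlapping arrays and lost the call, SLC35F2 without V4 or V5 (up to 0.130) and SLC35G2 without V4 (0.186). The carriers of CMP-sialic acid SLC35A1 (-0.33), UDP-galactose SLC35A2 (-0.18) and GDP-fucose SLC35C1 (-0.04) did not pass.

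Enzymes that make these donors, a list of 13 genes of which 12 were tested, held 3 rises and 1 fall. Over all genes tested 12.8% were higher and 9.41% lower. Both PAPS synthases rose, PAPSS1 by 0.57 and PAPSS2 by 0.98 (adjusted p = 0.00897 and 0.00102), and so did CMAS, which makes CMP-sialic acid, by 0.83 (adjusted p = 0.000728). GMDS, the first enzyme of GDP-fucose synthesis from GDP-mannose, fell from 3529 ± 50.8 to 1409 ± 200.3 (log2 fold change -1.34, adjusted p = 0.000118). The carriers of CMP-sialic acid and GDP-fucose were thus not called where an enzyme for their substrate was. Of the 2 PAPS carriers, SLC35B2 was higher and SLC35B3 gave -0.13 (adjusted p = 0.501). A relation between carriers and enzymes was not tested.

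Mitochondrial carriers of the SLC25 family were the largest class, with 31 tested of 44, 6 higher and 3 lower and a median of 0.10. SLC25A23, which exchanges ATP-magnesium for phosphate, rose from 1531 ± 153 to 2552 ± 180.0 (log2 fold change 0.74, standard error 0.12, adjusted p = 0.00142). SLC25A1, which exports citrate, rose from 326 ± 4.0 to 518 ± 36.8 (0.66, standard error 0.12, adjusted p = 0.00219), with gelsolin arrays from 458 to 595 and vector arrays from 321 to 337. SLC25A10, which exchanges malate and succinate for phosphate, read 1315 then 1303 (C1), 1016 then 1229 (C2), 1061 then 1231 (C3) but only 829.3 then 761 (C8), against 649 then 726 (V4) and 604 (V5). C8 lay near V4 and C1 far above it, and the log2 fold change was 0.74 (SE 0.18, adjusted p = 0.0140, with up to 0.158 without V4 or V5).

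The other rises of the class were smaller and are named after their values were seen. The glutamate carrier SLC25A22 gave 0.61, the oxoglutarate carrier SLC25A11 0.40 and the glutathione carrier SLC25A40 0.33, with adjusted p between 0.0270 and 0.0315. Each lost its call without a vector line, with adjusted p of up to 0.310, 0.212 and 0.247, and each also without at least 1 gelsolin line. Among the falls SLC25A44, a carrier of branched-chain amino acids, went from 694 ± 29.3 to 486 ± 24.3 (-0.51, adjusted p = 0.00869, with up to 0.118 without V4 or V5). SLC25A34, a carrier of the same family, fell from 124 ± 8.98 to 85.7 ± 7.10 (-0.53, adjusted p = 0.00264, but 0.0607 without V5), and the oxodicarboxylate carrier SLC25A21 gave -0.29 (adjusted p = 0.0424, with up to 0.264 without V4 or V5 and 0.0788 without C1 or C8). The phosphate carrier SLC25A3 (0.04), the adenine nucleotide translocases SLC25A4 (0.04) and SLC25A5 (0.28) and the mitoferrins SLC25A37 (0.04) and SLC25A28 (0.21) did not pass. Of 11 tested genes for other inner and outer membrane transport, among them VDAC1 (0.34, adjusted p = 0.0889) and the pyruvate carrier subunits MPC1 (-0.07) and MPC2 (0.03), none passed limma's adjusted threshold and 2 had an unadjusted p under 0.05.

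Of 36 salt and acid-base carrier genes 16 were tested and 1 was called, with a class median of -0.03. SLC12A2, the sodium, potassium and chloride cotransporter NKCC1 of epithelial secretion, gave 307 then 362 (C1), 429.7 then 362 (C2), 378 then 331 (C3) and 483 then 435 (C8), against 313 then 262 (V4) and 266 (V5). The first C1 array lay under the first V4 array, and the difference of 0.47 on the log2 scale (SE 0.14, adjusted p = 0.0316) lost its call without V4 or V5, at up to 0.243. The log2 fold change of SLC12A2 was also not called after quantile normalization (adjusted p = 0.0668) and without the second harvest of C1 (0.0594). Of 9 tested kinases and scaffolds that act on carriers, 2 were higher and 2 lower, beside 12.8% and 9.41% of all genes tested. STK39, the kinase that phosphorylates NKCC1, was higher by 0.78 (adjusted p = 0.00940), and AHCYL1, also known as IRBIT and a partner of bicarbonate carriers, by 0.61 (adjusted p = 0.00819). WNK1 and WNK4, the kinases upstream of STK39, were lower by log2 fold changes of -0.39 and -0.56 (adjusted p = 0.0122 and 0.00109) with both arms dim. Every WNK4 array of the gelsolin lines lay below the filter level, at 65.2 to 86.7, so WNK4 was tested only because it was higher in the vector lines. The related kinase OXSR1 (0.03) and CAB39 (-0.16), which activates both kinases, were not called. STK39 and AHCYL1 overlapped between arms, since the first harvest of V4 gave 4007 and 1879, inside the gelsolin range. SLC9B2 (-0.26, adjusted p = 0.0831) had the smallest adjusted p among the class members not called, and the sodium and bicarbonate carrier SLC4A7 (0.21) and the anion exchanger SLC26A6 (0.14) were not called.

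The gradients that many of these carriers use are set by pumps. ATP1B1, the beta subunit of the sodium pump, rose from 386 ± 10.8 to 1115 ± 173 (log2 fold change 1.52, standard error 0.15, adjusted p = 5.85e-05), the only call among 5 sodium and calcium pump genes tested. None of 15 tested genes of the vacuolar proton pump passed limma's adjusted threshold, and 0 had an unadjusted p under 0.05, with a median of 0.03.

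Organic ion, drug and peptide carriers were the class with the most dim genes, 10 tested of 37, with 2 higher and 1 lower. SLC22A17, a receptor for the iron-binding protein lipocalin, rose from 137 ± 16.05 to 202 ± 22.5 (0.56, adjusted p = 0.00868, but 0.152 without V5). SLC22A15 fell from 116 ± 5.2 to 87.7 ± 2.80 (-0.41, adjusted p = 0.00450 by limma), and its call was lost without V4. Only 1 of its gelsolin lines lay above the filter level, so it was tested because it was higher in the vector lines. SLC15A1, the peptide carrier PEPT1 of intestinal absorption, was called higher at 0.30 (adjusted p = 0.0479), but its arrays overlapped, it passed the filter through the gelsolin lines alone, and its call was lost without C1, C2, C3, V4 or V5 (adjusted p of up to 0.351) and with the beadchip as a block (0.124). Among other carriers of the major facilitator superfamily, 6 tested of 7, SLC68A1, also named MFSD13A, rose from 217 ± 0.303 to 384 ± 48.2 (0.81, standard error 0.13, adjusted p = 0.00150), and SLC71A1, also named MFSD14A, fell from 163 ± 3.53 to 120.0 ± 6.23 (-0.45, adjusted p = 0.00648, with up to 0.0688 without V4 or V5).

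Phosphate, sulfate and carboxylate carriers (6 tested), calcium exchangers (2 tested) and the 4 genes with a carrier symbol that are pseudogenes, an antisense gene or an adaptor had no member past limma's adjusted threshold and 0 with an unadjusted p under 0.05. The phosphate carrier SLC20A2 (0.54, adjusted p = 0.170) and the sulfate carrier SLC13A4 (-0.19), the calcium exchangers SLC24A1 (-0.25) and SLC8B1 (0.06), and the pseudogenes SLC71A3P (0.22) and SLC6A10P (-0.12) are examples. A probe of a pseudogene may also bind its parent transcript, and probe sequences were not used here.

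For members that passed the filter in only 1 arm, the filter itself used the arm that was bright. SLC5A1 passed through the vector lines, and SLC6A6, SLC15A1, SLC6A16, SLC5A3 and SLC38A11 through gelsolin lines, while 149 of the 168 members lay above the median in all 6 lines. SLC22A15 had 1 gelsolin line and 2 vector lines above the median, so it too needed its vector lines to pass. Just inside the filter, the second-highest line mean was 90.2 for SLC38A11, 90.8 for SLC35B4, 91.3 for SLC15A1 and 92.4 for SLC5A3. Just outside it was 86.7 for SLC35E4, 85.8 for SLC23A1, 84.8 for SLC5A11 and 84.8 for SLC8A2.

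A second probe passed the filter for 5 members. For SLC44A1 both probes rose, the dimmer one by 0.78 (adjusted p = 0.00189) with 264 to 498 in gelsolin arrays and 194 to 239 in vector arrays. For SLC30A5 the probes went opposite ways. The brighter one gave 503 then 576 (C1), 606 then 656 (C2), 601 then 613 (C3) and 443 then 618 (C8), against 446 then 429 (V4) and 397 (V5) (log2 fold change 0.46, adjusted p = 0.0221). The dimmer one gave 369 and 412, 343 and 442, 392.05 and 444, and 329 and 350.0 in the same lines, against 484 then 607 (V4) and 570.1 (V5) (-0.54, adjusted p = 0.00933), with every gelsolin array below every vector array. Where these probes lie in the transcripts was not checked, and SLC30A5 has no single direction here. The counts of members and of zinc carriers above hold it as higher by its brighter probe, which lost its call without V4 or V5. SLC39A3 and SLC6A9 were called by the brighter probe alone, and neither SLC25A26 probe was called.

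**Figure D4:**
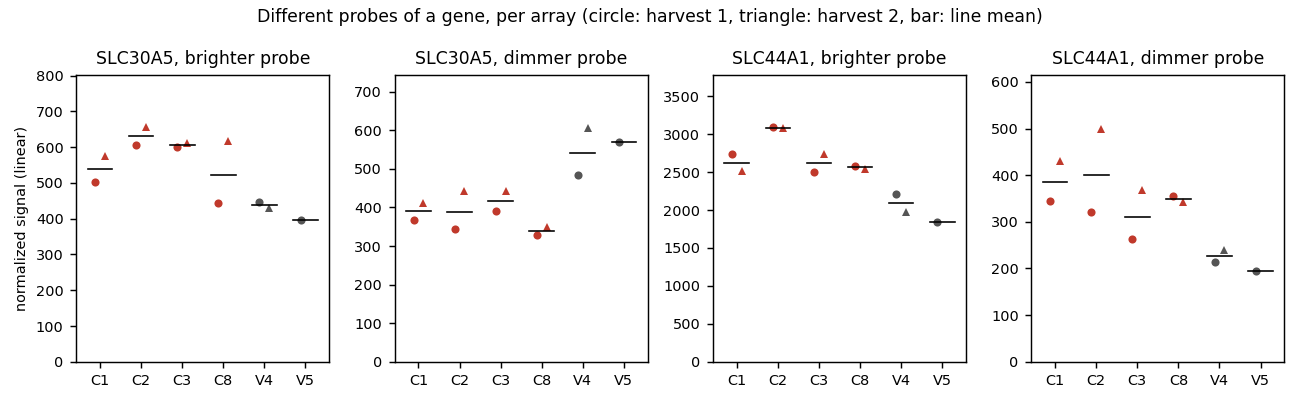
Normalized signal on a linear scale (vertical axis) per array and line (horizontal axis) of the brighter and dimmer probes of SLC30A5 and SLC44A1, with circles for first and triangles for second harvests, bars for line means, red for gelsolin and grey for vector lines. The gelsolin arrays of the dimmer SLC30A5 probe, at 329 to 444, lie below its vector arrays, at 484 to 607, while the other 3 probes run the other way.

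Differences among the 4 gelsolin lines were tested over their 8 arrays with the harvest as a covariate. No member passed the adjusted threshold of limma's F test, 22 had an unadjusted p under 0.05, and 0.429% of all genes were called. The smallest adjusted p, 0.0935, was shared by SLC20A2, a sodium-driven phosphate carrier, and SLC38A10, a relative of the glutamine carriers. The SLC20A2 arrays gave 607 and 550.0 in C2 but 349 and 362 in C1, 263 and 325 in C3, and 354 and 292 in C8. SLC38A10 was low in C8, at 173 and 183, where the other gelsolin lines read 247 to 329.9 and the vector arrays 165 to 223. SLC6A6, the taurine carrier, was high in C8, at 149 and 127 against 71.1 to 104 in the other gelsolin lines. SLC6A16, an orphan of the sodium-driven amine carrier family, read 93.4 then 63.9 (C1), 119 then 75.7 (C2), 159.5 then 87.4 (C3) and 150.2 then 95.6 (C8), so that every second harvest was below its first. Without C8 the test called 3 members, SLC20A2, SLC50A1 and SLC6A16, with a lowest adjusted p of 0.00964. Shares over all genes for these 3 and for the 22 are not given here, so neither count is read as a result about carriers.

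Harvests of a line differed by a median of 0.128 to 0.189 on the log2 scale over the members, and V4 differed from V5 by 0.116. The members with differences of at least 2-fold between harvests were few, and each is named after its values were seen. SLC25A51, the mitochondrial NAD carrier, went from 7794 to 2106 in C1, from 9185 to 2428 in C2 and from 8684 to 2573 in C3, log2 differences of -1.89, -1.92 and -1.75. In C8 it went from 6069.8 to 8972 and in V4 from 5625 to 6793, with 8023 in V5. SLC5A8, a sodium-driven carrier of short-chain fatty acids that is often silenced in colorectal cancer, differed in the same lines, going from 345 to 109 in C1, 373 to 126 in C2 and 449 to 142 in C3. It held at 317 and 319 in C8, at 268 and 262 in V4 and at 274 in V5. In these 2 genes the second harvest was thus far below the first in 3 of the 4 gelsolin lines and in neither C8 nor V4. Neither was called between arms (adjusted p = 0.189 and 0.545), and within beadchips their direction turned, with log2 fold changes of 0.48 and 0.46 on beadchip 1 and -1.16 and -0.76 on beadchip 2.

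A zinc-related set differed between harvests in another order. SLC30A1 went from 161 to 361 in C1, from 164 to 295 in C2, from 130.4 to 232 in C3 and from 127 to 164 in C8, and in V4 from 141 to 160.1. SLC39A10, an importer that in mouse is held down by MTF1, went from 534 to 227 in C1, from 458 to 291 in C2 and from 603 to 507 in C3, and from 369.9 to 262 in V4, but from 442 to 571 in C8. C1 showed the greatest difference for both genes, in opposite directions. The metallothionein gene MT1X went from 471 to 2510.3 in C1, 608 to 1637 in C2, 830.4 to 1294 in C3, 888 to 1019 in C8 and 556 to 1047 in V4. MT2A went from 5012 to 12894 in C1, 6207 to 10802 in C2, 6739 to 8515 in C3, 4043 to 5376 in C8 and 6791 to 8259 in V4. In SLC30A1, SLC39A10, MT1X and MT2A the size of the harvest difference decreased from C1 through C2 to C3, though C8 exceeded C3 for SLC39A10 and MT2A and V4 exceeded C3 for SLC39A10 and MT1X. Other metallothionein genes did not all share this order. MT1G did, with log2 differences of 1.03, 0.51 and 0.09, but MT1E gave -0.75, 0.12 and 0.12 with 0.57 in V4, and MT1F gave 0.35, 0.09 and 0.11. These genes were picked for this pattern, so it is a description with no test, and harvest and beadchip cannot be told apart. Between arms, 2 of 10 tested genes of zinc and copper buffering were higher, MT1F by 0.76 and MT1X by 0.55 (adjusted p = 0.00649 and 0.00957), and MT1E gave -0.90 (adjusted p = 0.0580). The arrays of MT1X overlapped between arms, and calls of partner genes were not recomputed without single lines. Among 9 tested genes of iron handling STEAP3, a ferric reductase, was the 1 called, higher by 0.46 (adjusted p = 0.0285), and the transferrin receptor TFRC gave 0.04.

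**Figure D5:**
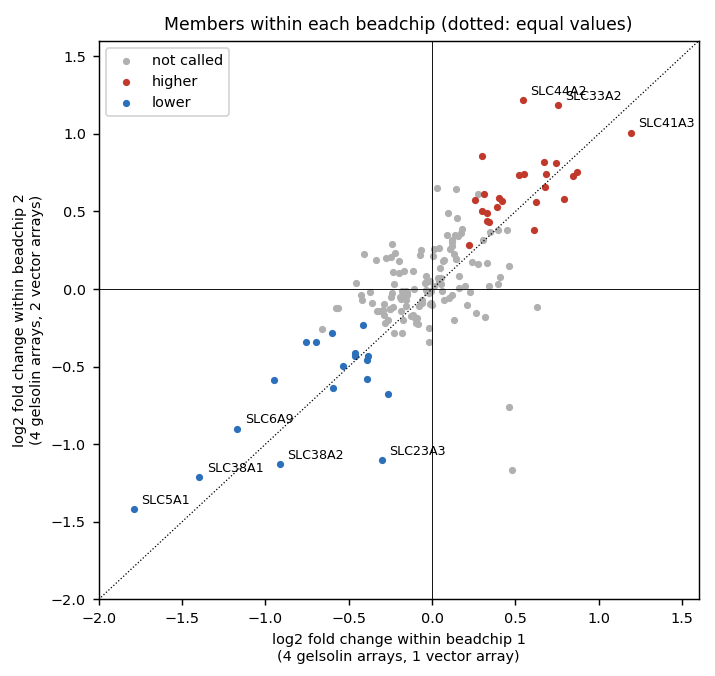
Log2 fold change of gelsolin over vector arrays for each member within beadchip 1 (horizontal axis, 4 gelsolin arrays and 1 vector array) and within beadchip 2 (vertical axis, 4 gelsolin arrays and 2 vector arrays). Red members were called higher, blue lower and grey not called, and the dotted line marks equal values. The 43 called members have 1 sign on both beadchips, as do 2262 of 2280 called genes in all, and the 2 grey points lowest on the vertical axis are SLC25A51, at 0.48 and -1.16, and SLC5A8, at 0.46 and -0.76.

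Within-beadchip fold changes of the 168 members had a Pearson correlation of 0.745 and a Spearman correlation of 0.698. This is a correlation across genes, which are not independent, and line V4 and all gelsolin lines enter on both sides. With beadchip 1 alone, where V4 gives the only vector array, 1 member was higher and 3 were lower at the adjusted threshold. With beadchip 2 alone 20 were higher and 11 lower. Over all 10267 genes these counts were 66 and 138 with beadchip 1 and 933 and 564 with beadchip 2. Of the 43 calls, 14 held when each of the 6 lines was left out in turn, 21 were lost only without V4 or V5, and 8 were also lost without a gelsolin line. The 14 include SLC33A2, SLC41A3, SLC68A1, SLC29A4, SLC35B2, SLC25A23, SLC30A3 and SLC25A1 among the rises and SLC5A1, SLC38A1, SLC38A2, SLC6A9, SLC39A14 and SLC23A3 among the falls, of which SLC5A1 was tested through its vector lines alone and SLC39A14 was not called with beadchip 2 alone (adjusted p = 0.0588). Without V4 or V5 the vector arm is 1 line, so the spread then rests on the gelsolin lines. The share of all called genes that holds in the same way was not counted, so the 14 are not read as a result about carriers.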

How the data were processed

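RNA of 11 HCT116 samples was measured on Illumina beadchips. The deposited intensity values are linear bead signals that the authors summarised in BeadStudio, without normalization between arrays. A second deposited table holds ratio values that the authors made in GeneSpring by dividing each array by its 50th percentile and each probe by 1 baseline, and this table was used as an alternative. Apart from a constant per probe it differed from the median-scaled intensities by at most 3.96e-07 on the log2 scale. Whether BeadStudio subtracted background is not stated in the labels or methods. Of 20596 probes, 18389 had 1 gene symbol and 2207 had none. Group, line and replicate number came from the sample labels, and beadchips from the array columns. The replicate number was read as the harvest, since the methods of the study describe duplicates from independent harvests.

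Intensities were divided by the array median, multiplied by the common median and put on the log2 scale, and harvests of a line were averaged. Genes were tested with limma 3.58.1 in R 4.3.3 (a linear model per gene with trended, robust moderation of the variance), 4 gelsolin against 2 vector lines, 2-sided, with Benjamini-Hochberg adjustment over 10267 genes and a threshold of 0.05. P-values rest on the spread between lines, and V5 enters as 1 array. The test was checked on simulated data. The number of arrays limits the precision. Alternatives were other normalizations and filters, plain eBayes, the one-way analysis of variance that the methods name, blocks for harvest or beadchip, single beadchips, leaving out each line and the ratio table.

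Members named by rule were the 12 largest rises and 12 largest falls among calls whose arrays did not overlap, the 2 members with the smallest adjusted p in each class, the 5 with the smallest p between gelsolin lines, and SLC44A2, listed in the supplement of the study, which makes 41 members beside GSN. Further members are examples chosen after their values were seen. Members, substrate classes and partner lists were chosen with earlier results of these data known, and a few families were put in a class once their symbols had been read. Means ± SD are over line means on the linear scale.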

Additional observations from a re-analysis of the deposited data

Results flagged for a closer look

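In groups of 4 gelsolin line means, 5 of 41 named members had 1 line set apart from the other 3 by Dixon's ratio of its gap to the whole range, where chance gives about 1 in 20 groups. SLC41A3 had C3 at 1049 above the other lines, with a ratio of 0.845. SLC30A3 had C3 at 849 above the others (0.836), SLC39A3 had C1 at 332 above the others (0.859), SLC71A1 had C3 at 111 below the others (0.834) and SLC35D4 had C2 at 192 above the others (0.854). In each of these members the line set apart stayed on the same side of the vector lines as the other gelsolin lines.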

How the results depend on the processing

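No call turned its direction under the alternatives that kept the brightest probe, while with all probes the dimmer SLC30A5 probe was called lower. The members median log2 fold change, 0.03, was -0.0164 after quantile normalization, -0.0155 after normexp correction with quantile normalization, -0.0598 without a filter and -0.0153 within beadchip 1, beside medians over all genes of -0.00675, -0.00613, -0.0550 and -0.0228. The filter at 2 times the common median left 11 members lower of 115 tested, beside 727 of 7350 genes. The one-way analysis of variance, a test that the methods name, was run here on log2 line means without the 2-fold requirement of the study. It called 32 higher and 22 lower unadjusted, and 9 and 5 after Benjamini-Hochberg, beside 1718, 1374, 240 and 243 of 10267 genes. Within beadchip 1 there were 1 higher and 3 lower (all genes 66 and 138), and within beadchip 2 there were 11 lower (all genes 564). Leaving out each line in turn gave 8 to 31 higher, 7 to 20 lower, a median between -0.0306 and 0.0629, and 0 to 3 members differing between gelsolin lines. Without V4 there were 16 higher and 7 lower (all genes 522 and 364), and without V5 there were 8 and 10 (all genes 289 and 347). With no filter 25 were higher and 26 lower of 311, beside 1297 and 1384 of 18712. Harvest numbers were not taken to pair the samples, since harvest differences were not shared by all lines. Their correlations were 0.358 to 0.585 among C1, C2 and C3, and -0.282 to 0.210 in pairs that include C8 or V4. With the replicate block, 24 members were higher and 19 lower, and 41 of the 43 calls held, those of SLC25A40 and SLC15A1 being lost (adjusted p = 0.101 and 0.0925). For the named members, 810 values under alternatives kept their side of the threshold, 78 fell below it, 4 passed it and 0 turned. Depth is not counted on arrays, and dim members near the array median are limited by background.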
